A study of Mus musculus with 12 samples.

Results

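The respiratory chain genes described here are the 90 protein-coding genes, of 12028 in the deposited tables, whose mouse symbol marks a subunit of complex I, III, IV or V or cytochrome c. Membership was set by name: symbols that begin with mt-, Nduf followed by a subunit letter, Uqcr, Cox with a subunit number, or Atp5, and the genes Cyc1 and Cycs. The choice was made with earlier results of these data known. Of the 90 genes, 13 are encoded by the mitochondrial genome and 77 by the nucleus. Complex I holds 42 of them, complex III 10, complex IV 19 (with Ndufa4 and Ndufa4l2, which carry a complex I name) and complex V 18, and Cycs is the mobile carrier. RNA sequencing measured their transcripts in M2-10B4, an established line of bone marrow stromal cells from mice of the background C57BL/6J X C3H/HeJ, to follow what an androgen does while such cells become adipocytes. All cells came from this single line and were harvested on day 9 from 4 groups of 3 libraries, which the series calls biological triplicates. Control cells were untreated in regular medium, whose composition is not stated. The DHT group was given dihydrotestosterone, an androgen, at 10 nM in regular medium. The ADM group was grown in an adipogenic medium that held 10% charcoal-stripped serum and 2 µg/mL insulin. This medium also held 1 µM dexamethasone (a glucocorticoid) and 2 µM rosiglitazone (an agonist of PPARγ), and was changed every 3 days. ADM+DHT cells received that medium and 10 nM DHT. The p-values measure the spread between these libraries.

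The respiratory chain carries electrons from NADH through complex I, or from succinate through complex II, to coenzyme Q, then through complex III and cytochrome c to complex IV, which reduces oxygen. Complexes I, III and IV pump protons out of the mitochondrial matrix, and complex V, the ATP synthase, lets them return to make ATP. Most subunits are made from nuclear genes, while the mitochondrial genome encodes a few hydrophobic core subunits that are transcribed inside the organelle. White adipocytes gain mitochondria as they differentiate, and some subunits exist as paired isoforms that differ between tissues.

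The factors NRF1, GABP, YY1 and the estrogen-related receptors are known regulators of the family. Windows around the gene start of 3 nuclear members are shown as examples. Atp5k and Uqcrc1 were picked after the search because their windows hold matches, and Cox8b for its change in level; the windows of Uqcrfs1, Cycs and Ndufa10, which changed strongly, hold 0 matches. Capitals mark matches, on either strand, to the palindromic core of the NRF1 site, which is named only, and to the letters AAGGTCA (estrogen-related receptor), CCGGAAG (ETS factors such as GABP) and AAGATGGC (YY1); the palindromic androgen or glucocorticoid receptor element, also named only, was searched too. Each window runs from 250 bases before to 50 after the gene start on the gene's strand, from RefSeq on GRCm38.p6. Atp5k, at chr5:108434350-108434649 on the minus strand, holds 1 match each for NRF1, ETS factors and the estrogen-related receptor. Uqcrc1, at chr9:108936398-108936697 on the plus strand, holds 2 NRF1 matches, which begin at 5 and 30, after the gene start. Cox8b, at chr7:140900397-140900696 on the minus strand, is the member with the largest change below and holds 0 matches. No match overlaps another in these windows.
Atp5k: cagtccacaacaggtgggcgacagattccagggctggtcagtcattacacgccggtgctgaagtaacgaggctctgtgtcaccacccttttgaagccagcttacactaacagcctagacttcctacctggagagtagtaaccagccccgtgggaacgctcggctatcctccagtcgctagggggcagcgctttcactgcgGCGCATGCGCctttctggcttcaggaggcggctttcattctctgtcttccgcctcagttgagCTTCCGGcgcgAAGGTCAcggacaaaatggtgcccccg
Uqcrc1: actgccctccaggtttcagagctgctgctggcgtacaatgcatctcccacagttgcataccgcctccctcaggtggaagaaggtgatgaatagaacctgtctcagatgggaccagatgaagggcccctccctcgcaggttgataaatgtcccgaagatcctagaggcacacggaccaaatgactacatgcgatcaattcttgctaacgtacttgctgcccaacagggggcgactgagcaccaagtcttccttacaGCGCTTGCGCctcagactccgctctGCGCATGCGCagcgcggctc
Cox8b: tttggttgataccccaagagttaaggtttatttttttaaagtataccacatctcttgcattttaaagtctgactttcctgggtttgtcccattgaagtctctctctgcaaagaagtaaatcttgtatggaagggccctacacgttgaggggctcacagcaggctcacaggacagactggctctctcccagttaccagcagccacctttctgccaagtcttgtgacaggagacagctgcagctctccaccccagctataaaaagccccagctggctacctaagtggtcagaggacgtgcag

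Of the 77 nuclear members, 62 matched the RefSeq table, with 67 windows. The NRF1 letters were in 23.88% of these windows, against 10.15% of the 11864 windows of all genes in the tables. The YY1 letters were in 13.43% against 4.48%, the estrogen-related receptor letters in 10.45% against 3.03%, and the ETS letters in 20.9% against 17.67%. The androgen or glucocorticoid receptor letters were in 0% of the member windows and in 0.35% of the windows of all genes in the tables. With so low a share, 0% in 67 windows is not informative. These matches describe letters and are not binding sites.

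Values are FPKM, fragments scaled by transcript length and by the fragments mapped in the library, a level per length, and differences are on the log2(FPKM + 1) scale with limma's SE. Rose and fell mean a limma p below 0.05 after Benjamini-Hochberg adjustment over all genes tested. Total FPKM per library ran from 240651 to 262947, and the read depth behind it is unknown. The cells' identity was checked with marker lists. The summed FPKM of 9 adipocyte markers (9 of 9 in the tables) was 26.1 to 39.9 in control, 26.4 to 27.5 in DHT, 2039 to 2142 in ADM and 693 to 768 in ADM+DHT libraries. For 6 of 8 bone marrow stromal markers in the tables, the sum was 2308 to 2363 in control, 2492 to 2587 in DHT, 1385 to 1449 in ADM and 2101 to 2128 in ADM+DHT libraries. The sum follows the abundant Col1a1, which fell by 0.97 in ADM, while 3 of the 6 rose (among them Pdgfra by 0.95 and Vcam1 by 0.93) and 3 fell; all 6 rose in ADM+DHT against ADM. Lepr and Thy1 were not analysed here. Of 7 macrophage and haematopoietic markers 3 were in the tables, with a sum of at most 11.8 FPKM in any library, and of 5 endothelial markers 1, at most 1.26 FPKM. The adipocyte markers changed in the same direction as most members in ADM against control and in ADM+DHT against ADM. In ADM+DHT against control 8 of the 9 markers rose, with a median log2 difference of 4.65, while the median of the nuclear members was 0.09. The part of these markers in each result was not tested. In bulk RNA, fewer cells of a type and less RNA per cell cannot be told apart.

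The summed level of both gene groups was higher in adipogenic medium than in regular medium, and lower there with DHT than without. The 13 mitochondrial genes summed to 24730, 22634 and 23115 FPKM in the control libraries, 23181, 25281 and 25251 in DHT, 44439, 43887 and 42962 in ADM, and 33765, 34870 and 32969 in ADM+DHT. The 77 nuclear genes summed to 5041, 4575 and 4967 FPKM in control, 4495, 4315 and 4474 in DHT, 7461, 7703 and 8063 in ADM, and 5209, 5165 and 5084 in ADM+DHT. For both sums the 3 ADM libraries were above all others, but the ADM+DHT libraries lay between control and ADM for the mitochondrial sum and just above control for the nuclear sum. The mitochondrial sum was 1.86-fold higher in ADM than in control and 0.774-fold in ADM+DHT against ADM, while the nuclear sum was 1.59-fold and 0.666-fold. Against control, ADM+DHT was 1.44-fold for the mitochondrial sum and 1.06-fold for the nuclear sum. The ratio of the mitochondrial to the nuclear sum was 4.84 ± 0.159 (SD, n = 3) in control, 5.55 ± 0.359 in DHT, 5.66 ± 0.315 in ADM, and reached 6.57 ± 0.154 in ADM+DHT. The mitochondrial share of the FPKM of all genes was 9.57% ± 0.342 (SD, n = 3) for control cultures, 10.1% ± 0.450 for DHT, 16.8% ± 0.418 for ADM and 13.6% ± 0.313 for ADM+DHT.

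**Figure D1:**
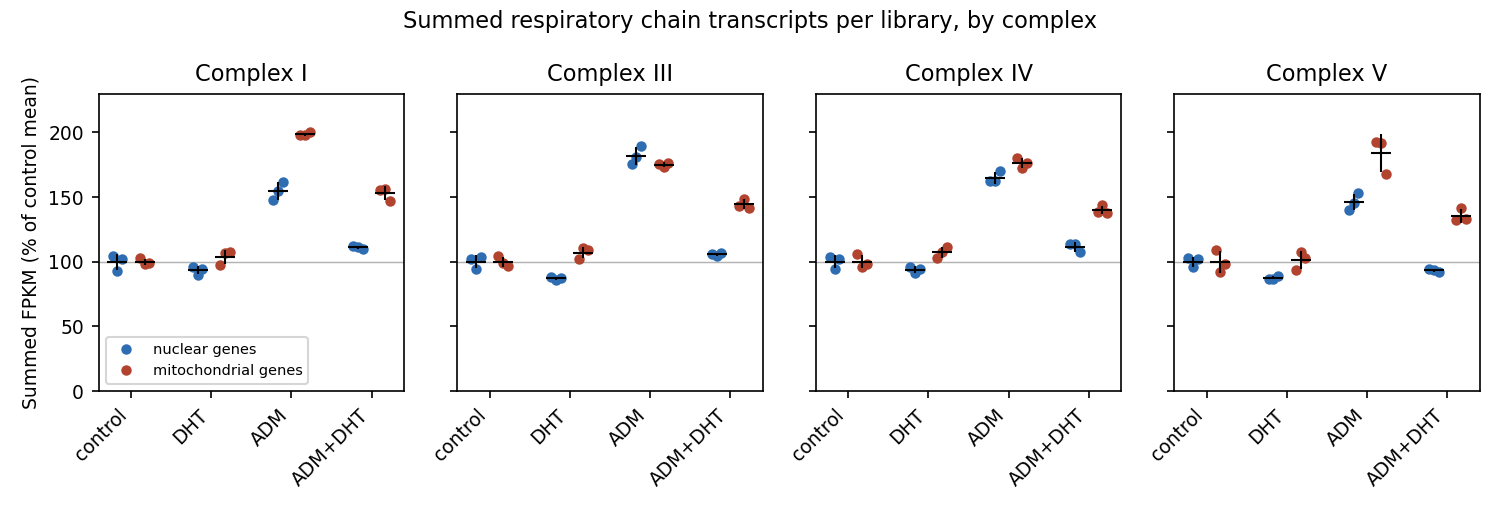
Summed FPKM of the members of complexes I, III, IV and V in each library, as a percentage of the control mean, for nuclear (blue) and mitochondrially encoded (red) genes; points are libraries, black marks the mean and SD over 3 libraries. In all 4 panels the ADM libraries are above the other groups, and the ADM+DHT libraries stay well above control for the mitochondrial genes but near it for the nuclear genes, below it for complex V.

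By complex, the nuclear sum in ADM was 1.82-fold of control in complex III, 1.65-fold in complex IV, 1.55-fold in complex I and 1.46-fold in complex V. In ADM+DHT the nuclear sum was 0.582-fold of the ADM level in complex III, 0.639-fold in complex V, 0.675-fold in complex IV and 0.719-fold in complex I. Nuclear complex V in ADM+DHT was at 0.933-fold of control, with no overlap between the 3 ADM+DHT libraries (1055 to 1085 FPKM) and the 3 control libraries (1097 to 1176 FPKM). These sums are descriptions and carry no test.

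Mitochondrially encoded genes rose nearly as a block. In ADM against control, 12 of the 13 rose, with a median log2 difference of 0.84, where 28.3% of the 11074 genes tested rose, 33.3% fell and the median was −0.03. The highest level among all members belonged to mt-Co1, the catalytic subunit of complex IV, with 3981, 3625 and 3759 FPKM in control, 4018, 4149 and 4359 in DHT, 6798, 6690 and 6788 in ADM, and 5293, 5352 and 5270 in ADM+DHT. The ADM libraries stood above all others, the ADM+DHT libraries were next, and control and DHT were lowest with no overlap between them. Its log2 difference was 0.84 (SE 0.04, adjusted p = 2.5e-06) in ADM and −0.35 (SE 0.02, adjusted p = 3.0e-05) in ADM+DHT against ADM. The largest rises were those of complex I genes: mt-Nd2 by 1.22 (SE 0.04), mt-Nd3 by 1.15 (SE 0.06) and mt-Nd1 by 1.00 (SE 0.05).

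With DHT added to adipogenic medium, 12 of the 13 mitochondrial genes fell against ADM and 0 rose, where 16.3% of the 10823 genes tested fell and 17.2% rose. The median log2 difference of the 13 was −0.34, against 0.01 for all genes. The largest falls were mt-Atp8, a small subunit of complex V, by 0.52 (SE 0.08), and mt-Nd1 by 0.50 (SE 0.05). Neither gene was back at the control level. The gene mt-Nd1 had 2790, 2617 and 2569 FPKM in control, 5498, 4951 and 5482 in ADM, and 3618, 3951 and 3670 in ADM+DHT, 3 ranges that did not overlap. For mt-Cytb, the only complex III subunit of the mitochondrial genome, the values were 2964, 2827 and 2746 FPKM in control, 4987, 4926 and 5026 in ADM, and 4073, 4234 and 4033 in ADM+DHT, again without overlap. Its log2 difference was 0.81 (SE 0.04) in ADM and −0.28 (SE 0.03) in ADM+DHT against ADM.

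The exception was mt-Nd6, a complex I subunit and the only mitochondrial member on the minus strand of chrM in GRCm38. It was also the lowest of the 13, with 107, 118 and 138 FPKM in control, 107, 105 and 84.2 in DHT, 126, 149 and 133 in ADM, and 145, 126 and 136 in ADM+DHT. The 12 libraries lay between 84.2 and 149 FPKM, and only the DHT libraries were all below the lowest control library. Its log2 difference was 0.17 (SE 0.10, adjusted p = 0.17) in ADM against control and −0.00 (SE 0.07, adjusted p = 0.99) in ADM+DHT against ADM. As a share of the mitochondrial sum, mt-Nd6 was 0.517% ± 0.081 (SD, n = 3) in control, 0.404% ± 0.064 in DHT, 0.311% ± 0.028 in ADM, and it was 0.401% ± 0.035 in ADM+DHT. The libraries were strand-specific and poly(A)-selected, so a level also depends on how far a transcript is polyadenylated, which was not measured. The values of mt-Nd6 need not follow its total transcript. How the counting used strand is not given in the sources used here, and mt-Nd6 shares 14 bases with mt-Nd5 on the opposite strand.

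Neighbouring mitochondrial genes overlap on the same strand too, so that a read in the shared bases belongs to either gene. The longest such stretch, shown because it limits how far mt-Atp8 and mt-Atp6 can be told apart, is 43 bases at chrM:7927-7969 (plus strand, GENCODE M21 transcripts on GRCm38), out of 204 bases of mt-Atp8 and 681 of mt-Atp6.
mt-Atp8 and mt-Atp6: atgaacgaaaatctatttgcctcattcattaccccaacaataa
The genes mt-Nd4l and mt-Nd4 share 7 bases. Copies of mitochondrial sequence in the nuclear genome can also take or lend reads, and levels of single mitochondrial genes are uncertain to that extent.

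**Figure D2:**
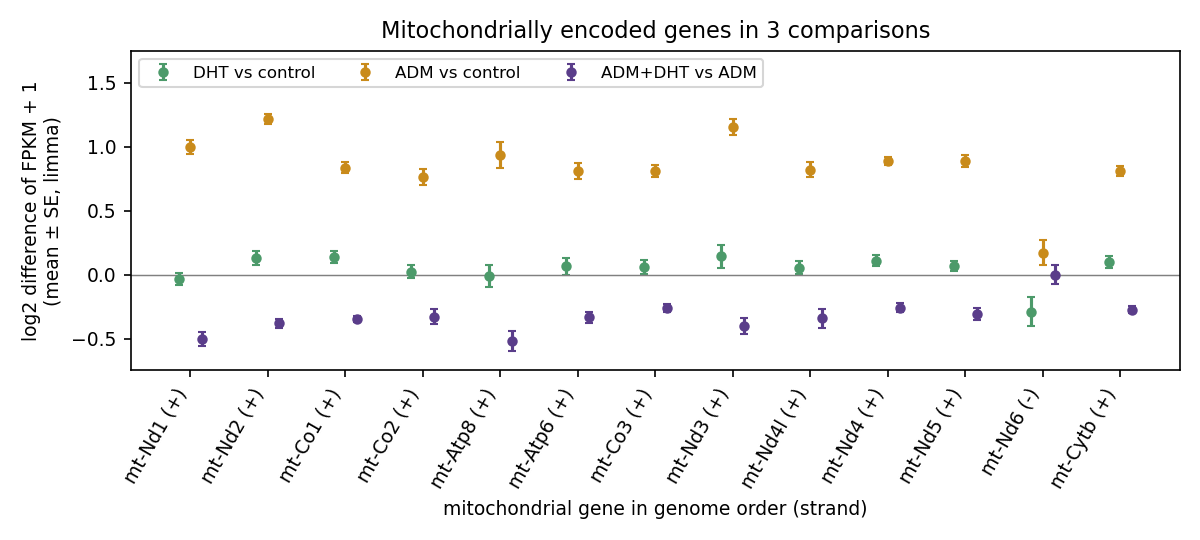
Log2 difference of FPKM + 1 with limma's SE for the 13 mitochondrial genes in genome order, with their strand, in DHT against control (green), ADM against control (ochre) and ADM+DHT against ADM (violet), 3 libraries a group. In 12 genes the ochre point lies between 0.76 and 1.22 and the violet point between −0.52 and −0.26, and mt-Nd6 is the exception.

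Most nuclear members also rose in adipogenic medium and fell when DHT was added to it. In ADM against control, 68 of the 75 nuclear genes tested rose, 2 fell (Cox6a2 and Cox7a2l) and 5 were not called (Atp5c1, Atp5g2, Ndufa12, Ndufb2 and Ndufs8). Cox7b2 and Ndufa4l2 were below the filter of a mean of 1 FPKM in a compared group and were not tested. Their libraries ranged from 0.157 to 1.41 FPKM for Cox7b2, which is listed in 9 libraries, and from 0.0408 to 1.01 FPKM for Ndufa4l2. In ADM+DHT against ADM, 65 of the 75 fell and 0 rose by limma (1 was higher at an unadjusted p below 0.05). The median log2 difference of the 75 was 0.63 in ADM and −0.54 in ADM+DHT against ADM. Of all genes tested, 28.3% rose and 33.3% fell in ADM against control. In ADM+DHT against ADM, 17.2% of all genes rose and 16.3% fell. The counts by complex in these comparisons are to be read against the same shares. GENCODE M21 lists pseudogenes under the names of 5 members (Atp5c1, Atp5k, Atp5l, Cycs and Uqcrh), whose levels are uncertain to the extent that reads were shared.

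**Figure D3:**
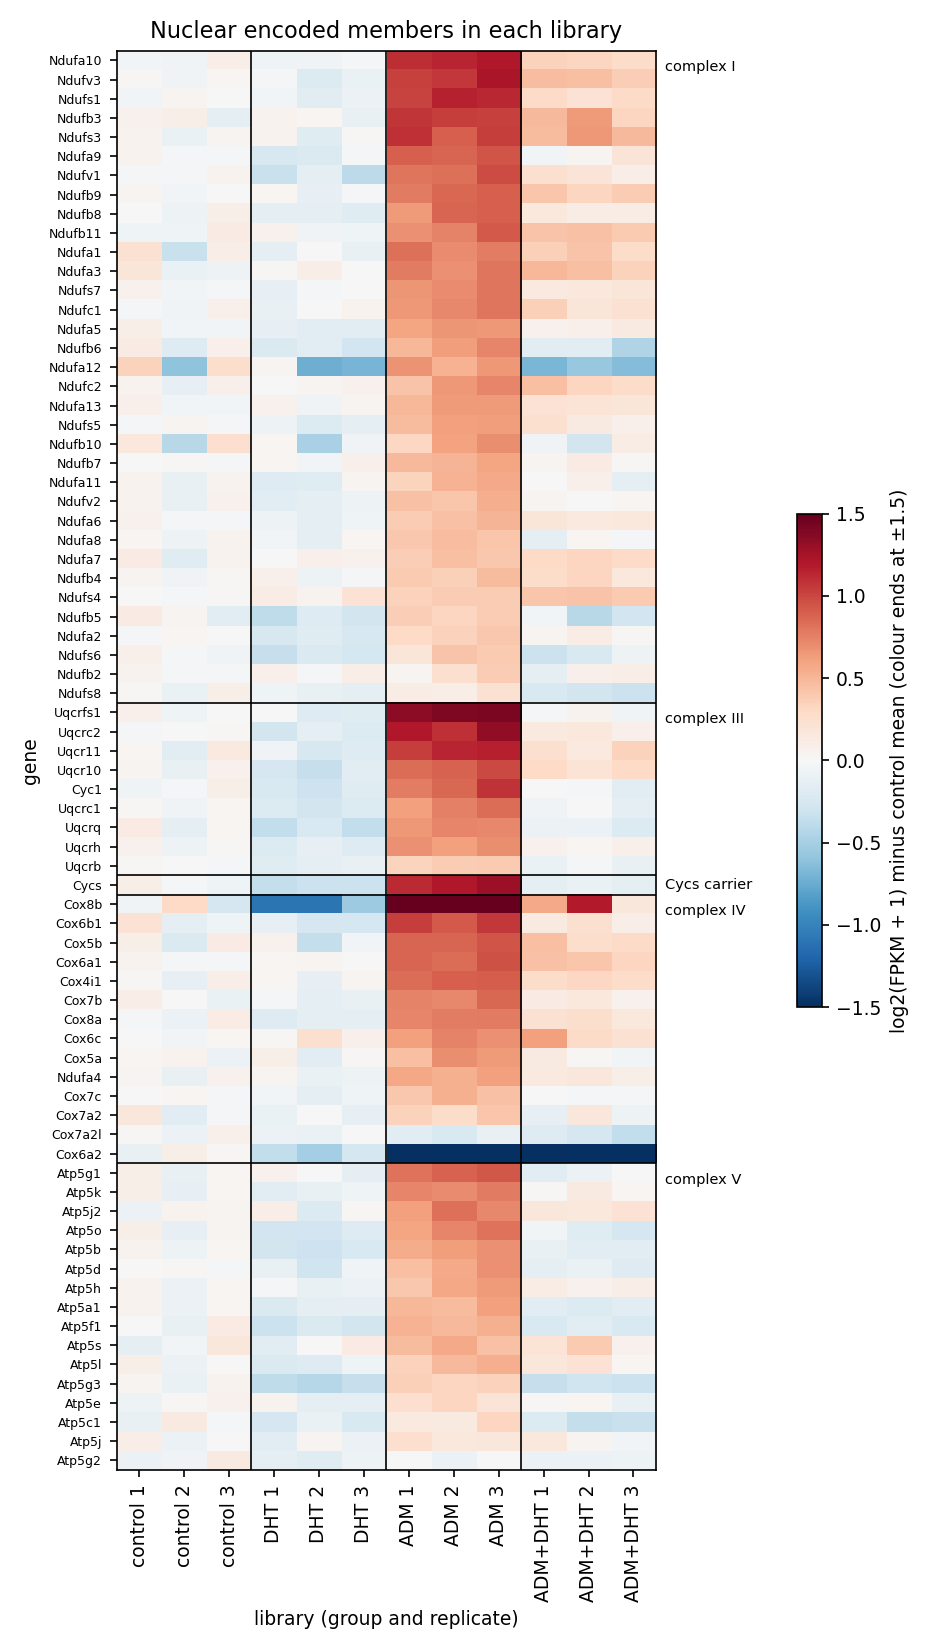
Level of 74 of the 75 tested nuclear members in each of the 12 libraries as log2(FPKM + 1) minus the mean of the 3 control libraries, by complex and sorted by the ADM difference; the colour ends at ±1.5, which Cox8b and Cox6a2 exceed. The ADM columns are red in nearly all rows and the ADM+DHT columns are pale, with Cox6a2 blue in both and Ndufs4 alike in both.

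Complex I takes electrons from NADH. Of its 35 nuclear genes, 32 rose in ADM (median log2 difference 0.61), 30 fell in ADM+DHT against ADM (median −0.47), and 0 changed the other way by limma, also at an unadjusted p below 0.05. Ndufs1, the largest iron-sulfur core subunit, had 7.08, 7.60 and 7.31 FPKM in control, 7.07, 6.41 and 6.84 in DHT, 15.8, 17.6 and 17.2 in ADM, and 9.15, 8.66 and 9.20 in ADM+DHT. The ADM libraries were highest, and the ADM+DHT libraries lay above control without overlap. Its log2 difference was 1.10 (SE 0.06, adjusted p = 3.7e-06) in ADM, −0.83 (SE 0.06, adjusted p = 5.1e-05) in ADM+DHT against ADM, and 0.26 (SE 0.06, adjusted p = 0.0051) in ADM+DHT against control. Ndufv1, which binds NADH and the flavin, rose by 0.87 (SE 0.06) and fell by 0.69 (SE 0.06). The largest rise among its nuclear genes was that of the accessory subunit Ndufa10, by 1.15 (SE 0.05).

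Ndufs4, an accessory subunit of the NADH-binding arm whose loss causes a Leigh-like disease in mice, departed from this pattern. It had 61.9, 60.4 and 62.0 FPKM in control, 66.7, 63.8 and 71.5 in DHT, 78.6, 80.3 and 80.2 in ADM, and 82.2, 83.2 and 81.2 in ADM+DHT. All DHT libraries were above control and all ADM+DHT libraries above ADM. It rose in ADM by 0.37 (SE 0.03, adjusted p = 6.0e-05), and DHT gave 0.13 (SE 0.05, adjusted p = 0.089) in regular and 0.04 (SE 0.03, adjusted p = 0.30) in adipogenic medium. When FPKM were scaled to an equal sum per library, the last of these was 0.11 and passed the threshold (adjusted p = 0.020). Ndufs4, Ndufa7, Ndufb4 and Ndufc2 are the nuclear complex I genes that rose in ADM and were not called in ADM+DHT against ADM. Ndufs4 was singled out after its values were seen.

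Ndufa12, an accessory subunit, took 2 levels among the libraries of a group. It had 125, 63.8 and 118 FPKM in control, 100, 58.4 and 60.1 in DHT, 156, 141 and 154 in ADM, and 60.6, 65.4 and 62.2 in ADM+DHT. Control library 2 and DHT libraries 2 and 3 were as low as the ADM+DHT libraries, while the others were at 100 or more. Its difference was 0.61 (SE 0.23, adjusted p = 0.053) in ADM against control and −1.25 (SE 0.05, adjusted p = 4.8e-06) in ADM+DHT against ADM. Ndufb10, another accessory subunit, was lowest in library 2 of control, DHT and ADM+DHT, with 118, 79.0 and 125 FPKM in control, 108, 74.7 and 102 in DHT, 131, 161 and 171 in ADM, and 101, 86.5 and 114 in ADM+DHT. The cause was not tested. Both genes were singled out after their values were seen.

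Complex III, which passes electrons from coenzyme Q to cytochrome c, and cytochrome c itself changed in every gene. All 9 nuclear complex III genes rose in ADM (median log2 difference 0.90) and all 9 fell in ADM+DHT against ADM (median −0.82). Uqcrfs1, the Rieske iron-sulfur protein, had 35.1, 31.7 and 33.1 FPKM in control, 33.4, 29.0 and 29.3 in DHT, 85.7, 89.6 and 90.3 in ADM, and 32.6, 34.7 and 32.0 in ADM+DHT. The ADM libraries stood alone, and the other 3 groups overlapped. Its log2 difference was 1.38 (SE 0.05, adjusted p = 4.1e-07) in ADM, −1.39 (SE 0.04, adjusted p = 1.9e-06) in ADM+DHT against ADM, and −0.01 (SE 0.05, adjusted p = 0.89) in ADM+DHT against control. Cycs, cytochrome c, had 43.6, 40.5 and 39.3 FPKM in control, 31.9, 32.7 and 32.6 in DHT, 90.5, 95.5 and 101 in ADM, and 37.2, 38.2 and 37.5 in ADM+DHT. DHT libraries lay below control and ADM+DHT libraries below ADM, both without overlap. Cycs rose by 1.20 (SE 0.06, adjusted p = 1.9e-06) in ADM and fell by 1.32 (SE 0.05, adjusted p = 2.9e-06) in ADM+DHT against ADM. The core protein Uqcrc2 rose by 1.21 (SE 0.06) and fell by 1.08 (SE 0.06), and the haem-bearing cytochrome c1, Cyc1, rose by 0.90 (SE 0.08) and fell by 0.96 (SE 0.08). The smallest rise in the complex was that of Uqcrb, by 0.37 (SE 0.03).

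Complex IV, cytochrome c oxidase, has 14 nuclear genes that could be tested, of which 12 rose in ADM and 12 fell in ADM+DHT against ADM. Its tissue isoforms moved in opposite ways. Cox8b, the isoform of subunit VIII known from heart, skeletal muscle and brown fat, had 1.06, 1.63 and 0.792 FPKM in control and 29.9, 27.0 and 32.9 in ADM. In DHT it was listed at 0, 0 and 0.465 FPKM, and in ADM+DHT it had 2.15, 3.86 and 1.41. All ADM libraries were far above every other library, and each ADM+DHT library but the lowest was above control. On the log2(FPKM + 1) scale, which understates changes of low genes, Cox8b rose by 3.85 (SE 0.14, adjusted p = 5.5e-07) in ADM and fell by 3.21 (SE 0.23, adjusted p = 6.6e-05) in ADM+DHT against ADM. The ubiquitous isoform Cox8a had 183, 174 and 201 FPKM in control, 309, 317 and 319 in ADM, and 217, 223 and 207 in ADM+DHT, and rose by 0.76 (SE 0.05) and fell by 0.54 (SE 0.03). Cox8b therefore made up 8.67% ± 0.763 (SD, n = 3) of the summed FPKM of Cox8a and Cox8b in ADM, 0.632% ± 0.272 in control and 1.12% ± 0.528 in ADM+DHT.

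Cox6a2, the striated muscle isoform of subunit VIa, went the other way. It had 16.3, 18.8 and 18.0 FPKM in control, 13.5, 12.1 and 14.5 in DHT, 0.906, 2.42 and 2.01 in ADM, and 2.83, 2.36 and 4.29 in ADM+DHT. Control was highest, DHT next without overlap, and both adipogenic groups were low and overlapped. It fell by 2.79 (SE 0.20, adjusted p = 1.6e-05) in ADM against control and by 0.38 (SE 0.08, adjusted p = 0.013) in DHT against control, and its difference in ADM+DHT against ADM was 0.60 (SE 0.25, adjusted p = 0.11). Fitted on all 12 libraries, the last of these passed (adjusted p = 0.039) and the fall in DHT did not (adjusted p = 0.19). Its share of the summed FPKM of Cox6a1 and Cox6a2 was 14.3% ± 1.26 (SD, n = 3) in control, 11.03% ± 1.04 in DHT, 0.896% ± 0.402 in ADM, against 2.23% ± 0.793 in ADM+DHT. The liver-type isoform Cox6a1 rose by 0.89 (SE 0.04) in ADM and fell by 0.49 (SE 0.05) with DHT there. Of 11 muscle markers, 9 were not analysed here. The other 2 (Acta1 and Tnni2) were low, with a sum of 1.94 to 2.55 FPKM in control, 1.27 to 2.38 in DHT and 0.346 to 0.603 in ADM. Acta1 was not tested. Tnni2 alone was 0.271 to 0.744 FPKM in ADM+DHT and fell by 1.01 (SE 0.19, adjusted p = 0.0027) in ADM against control, as Cox6a2 did. In DHT against control, where Cox6a2 fell, Tnni2 was not called (−0.06, SE 0.24, adjusted p = 0.88). The part of muscle genes in the Cox6a2 result was not tested. Of 8 brown and beige markers, Cox8b is itself a member, and Ucp1, Ppargc1a, Elovl3 and Cox7a1 were not analysed here. Of the 4 in the tables, 3 rose in ADM against control (Cox8b, Cidea by 1.77 and Prdm16 by 1.14) and Dio2 fell by 5.36, and the first 3 fell in ADM+DHT against ADM. Cidea was listed at 0 in all control libraries, was 2.19 to 2.54 FPKM in ADM, and has no DHT values here. The 4 summed to 75.7 to 80.8 FPKM in control, nearly all of it Dio2 (74.2 to 79.1 FPKM), and to 33.6 to 38.5 FPKM in ADM, most of it Cox8b. The sum was 3.71 to 5.91 FPKM in ADM+DHT, and without Cidea 3.34 to 4.64 FPKM in DHT. The part of these markers in the isoform changes was not tested.

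**Figure D4:**
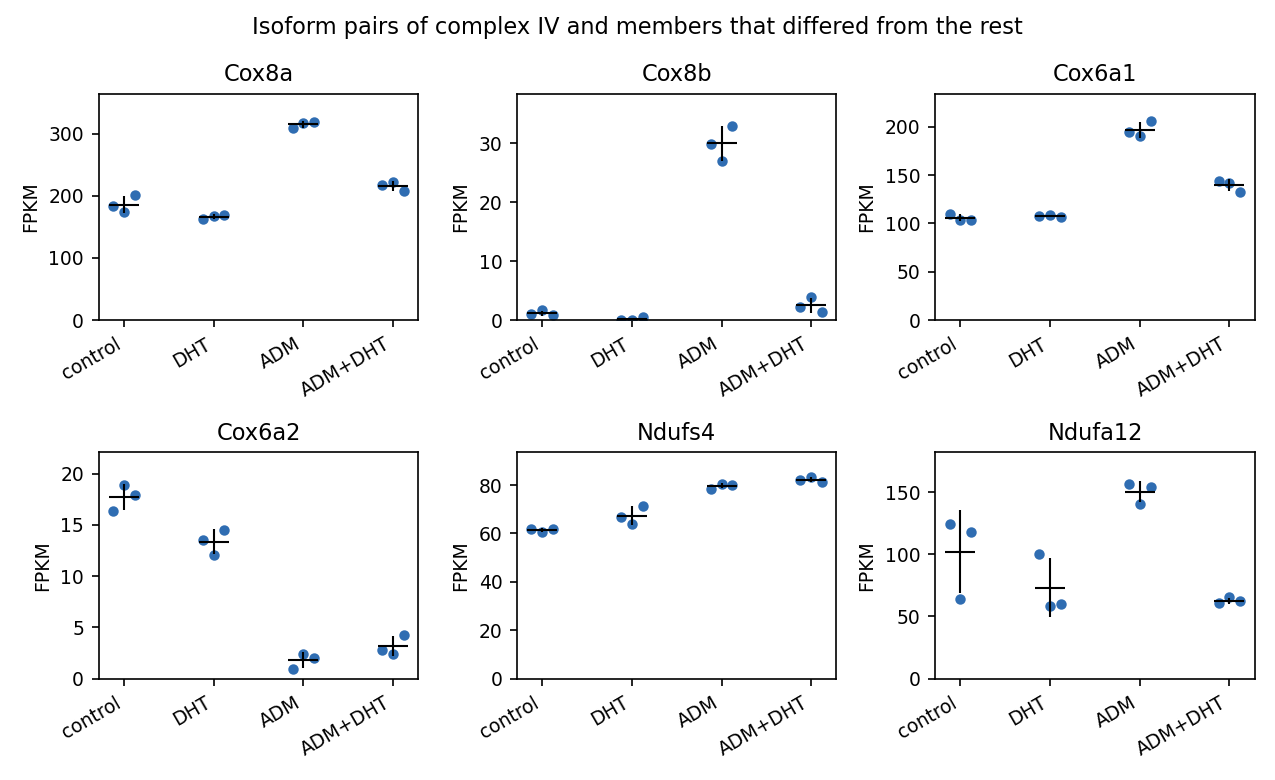
FPKM of 6 nuclear members in each library (points), with mean and SD of the 3 libraries of a group (black). Cox8b is high only in the 3 ADM libraries (27.0 to 32.9 FPKM), Cox6a2 is high only without adipogenic medium (12.1 to 18.8 FPKM), Ndufs4 is not lower in ADM+DHT than in ADM, and Ndufa12 takes 2 levels in control and DHT.

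The other paired genes of complex IV were closer to the family. Cox4i1, the ubiquitous isoform of the subunit that regulates the complex, rose by 0.88 (SE 0.06) in ADM and fell by 0.59 (SE 0.03) with DHT there, Cox6b1 rose by 1.01 (SE 0.09) and fell by 0.85 (SE 0.05), and Cox7a2 rose by 0.35 (SE 0.08) and fell by 0.36 (SE 0.08). Ndufa4, which carries a complex I name but is a complex IV subunit, rose by 0.58 (SE 0.06) and fell by 0.44 (SE 0.04). Cox7a2l, a factor of supercomplex assembly rather than a regular subunit, fell by 0.17 (SE 0.05, adjusted p = 0.024) in ADM, with 94.2, 88.0 and 98.1 FPKM in control and 82.9, 79.4 and 86.0 in ADM. This small fall lost the threshold without control replicate 1 or 3 or ADM replicate 1 or 2 (adjusted p = 0.055 to 0.081) and under 2 other settings given in the closing section. The partner isoforms Cox4i2, Cox6b2 and Cox7a1 were not analysed here.

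Complex V, the ATP synthase, also rose in ADM, and its nuclear sum in ADM+DHT was below control. Of its 16 nuclear genes, 14 rose in ADM (median log2 difference 0.52), 13 fell in ADM+DHT against ADM (median −0.60) and 0 went the other way by limma, also at an unadjusted p below 0.05. Atp5b, the catalytic beta subunit and the highest nuclear member, had 326, 297 and 319 FPKM in control, 259, 253 and 268 in DHT, 461, 487 and 507 in ADM, and 290, 282 and 281 in ADM+DHT. Every DHT library was below every control library, in regular medium as in adipogenic medium against ADM, and the ADM+DHT libraries were also below control. It rose by 0.63 (SE 0.05, adjusted p = 2.9e-05) in ADM, fell by 0.77 (SE 0.04, adjusted p = 1.2e-05) in ADM+DHT against ADM and fell by 0.27 (SE 0.04, adjusted p = 0.0042) in DHT against control. Its partner in the catalytic head, the alpha subunit Atp5a1, rose by 0.53 (SE 0.05) and fell by 0.71 (SE 0.04) with DHT in adipogenic medium.

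The membrane ring of complex V is built of the c subunit, which 3 nuclear genes encode with the same mature protein. They did not move alike. Atp5g1 had 14.5, 12.5 and 13.9 FPKM in control, 14.3, 13.7 and 12.2 in DHT, 24.7, 25.9 and 26.7 in ADM, and 12.003, 12.7 and 13.6 in ADM+DHT, high in ADM alone. Atp5g2 had 23.4, 24.0 and 27.3 FPKM in control, 22.3, 21.9 and 23.5 in DHT, 25.0, 23.3 and 24.8 in ADM, and 23.4, 23.3 and 23.5 in ADM+DHT, overlapping throughout. Atp5g3 had 58.6, 53.1 and 58.8 FPKM in control, 43.3, 42.0 and 44.6 in DHT, 72.9, 71.2 and 72.2 in ADM, and 44.3, 46.0 and 45.4 in ADM+DHT, lower in both DHT groups than in their partners. The differences in ADM were 0.87 (SE 0.06) for Atp5g1 and 0.34 (SE 0.05) for Atp5g3, both called, and −0.03 (SE 0.07, adjusted p = 0.74) for Atp5g2. In ADM+DHT against ADM they were −0.96 (SE 0.06) and −0.66 (SE 0.03), both called, and −0.06 (SE 0.04, adjusted p = 0.36) for Atp5g2. The share of Atp5g1 in the summed FPKM of the 3 genes was 14.3% ± 0.633 (SD, n = 3) in control, 16.9% ± 1.49 in DHT, 21.1% ± 0.808 in ADM, against 15.7% ± 0.737 in ADM+DHT.

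In regular medium DHT changed a smaller set of members, all nuclear. Of the 88 tested, 19 fell and 0 rose by limma, where 14.1% of the 10820 genes tested fell and 12.7% rose; at an unadjusted p below 0.05, 29 were lower and 4 higher. The 19 are 7 of the 9 nuclear complex III genes (77.8%), 5 of 16 in complex V (31.2%), 4 of 35 in complex I (11.4%), 2 of 14 in complex IV (14.3%), and Cycs. The shares of complexes I and IV were near that of all genes. Of lists described below, 21.8% of mitochondrial ribosomal protein genes fell. So did 42.1% of citric acid cycle and pyruvate dehydrogenase genes and 15.8% of fatty acid oxidation genes. After Cox8b, listed at 0 in 2 DHT libraries and at 1.06, 1.63 and 0.792 FPKM in control, the largest falls were those of Atp5g3 by 0.38 (SE 0.05, adjusted p = 0.0017) and Cox6a2. Cycs fell by 0.33 (SE 0.05, adjusted p = 0.0023). Of the 13 mitochondrial genes 0 were called, with log2 differences from −0.29 (mt-Nd6) to 0.14 (mt-Nd3 and mt-Co1), 3 higher and 1 lower at an unadjusted p below 0.05. The count of 19 rests on single libraries: it was 10 without control replicate 1, 11 without control replicate 3 and 8 without DHT replicate 1. With mitochondrial genes left out of the scaling 3 members rose, and without DHT replicate 1 also 3.

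Cells given both treatments had nearly all mitochondrial transcripts above the control level, and a much smaller share of the nuclear ones. This comparison was added after seeing the data. Of the 88 members tested, 40 rose and 11 fell in ADM+DHT against control, where 29.0% of 10987 genes rose and 31.0% fell. The 40 are 12 of 13 mitochondrial genes (92.3%) and 28 of 75 nuclear genes (37.3%, against 29.0% of all genes). The 11 that fell are all nuclear (14.7% of the 75). By complex, 19 of 35 nuclear genes (54.3%) rose and 3 fell in complex I, and 3 of 9 (33.3%) rose in complex III. In complex IV 5 of 14 (35.7%) rose and 2 fell, and in complex V 1 of 16 (6.2%) rose and 6 (37.5%) fell. The risen shares of complexes III and IV were near that of all genes, and that of complex V was below it. Among the genes that had risen in ADM and fallen with DHT there, the 12 mitochondrial genes were all still above control. Of the 62 such nuclear genes, 24 were above control, 6 were below it (Atp5a1, Atp5b, Atp5d, Atp5f1, Atp5g3 and Ndufs6) and 32 were not called. A gene that was not called is not shown to have returned to the control level. The largest nuclear rises were those of the complex I genes Ndufs3 by 0.54 (SE 0.07) and Ndufb3 by 0.48 (SE 0.09), and after Cox6a2 the largest falls among genes whose libraries did not overlap were those of Atp5g3 by 0.32 (SE 0.05) and Atp5c1 by 0.30 (SE 0.07). Without control replicate 1 the fallen numbered 7.

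Set against DHT alone, 58 members rose in ADM+DHT (13 of 13 mitochondrial and 45 of 75 nuclear) and 3 fell (Cox6a2, Cox7a2l and Ndufs8), where 23.3% of 10942 genes rose and 26.7% fell. Of the nuclear complex V genes, 4 of 16 were called. The mitochondrial median log2 difference was 0.46 and the nuclear median 0.21.

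The effect of DHT differed between the media for most members. In the interaction over 12 libraries, the DHT difference in adipogenic medium less that in regular medium, 66 of 88 members were negative and 1, Cox6a2, was positive, where 12.9% of 11152 genes were negative and 12.5% positive. The 66 are 12 of 13 mitochondrial genes (all but mt-Nd6) and 54 of 75 nuclear genes, and include all 9 nuclear genes of complex III. The largest, after Cox8b, were Uqcrfs1 with −1.27 (SE 0.08, adjusted p = 7.2e-07) and Cycs with −0.99 (SE 0.07, adjusted p = 1.0e-06). Cox8b had −2.30 (SE 0.34, adjusted p = 0.00041), but −0.88 (adjusted p = 0.49) with a pseudocount of 0.1, since it is listed at 0 in DHT libraries. The positive value of Cox6a2, 0.98 (SE 0.29, adjusted p = 0.027), lost the threshold without control replicate 2 or 3, DHT replicate 1 or 2, or ADM+DHT replicate 3 (adjusted p = 0.0504 to 0.0621).

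Other genes of the pathway were taken from lists, and their counts are to be read against the shares of all genes tested given above. Complex II, which feeds electrons from succinate and whose 4 subunits are all nuclear, rose as a whole: 4 of 4 genes rose in ADM and 4 of 4 fell in ADM+DHT against ADM. Its flavoprotein Sdha had 46.7, 47.5 and 44.4 FPKM in control, 42.9, 41.4 and 43.7 in DHT, 86.5, 87.8 and 91.3 in ADM, and 53.4, 56.0 and 56.6 in ADM+DHT. ADM was highest and ADM+DHT lay between it and control without overlap. The acyl carrier Ndufab1, a complex I subunit outside the name rule, rose by 0.82 (SE 0.09) and fell by 0.90 (SE 0.08). Atpif1, the inhibitor of ATP synthase, moved the other way: it had 143, 132 and 137 FPKM in control, 82.8, 88.2 and 94.1 in ADM, and 97.7, 105 and 101 in ADM+DHT, a fall of 0.63 (SE 0.06, adjusted p = 4.5e-05) and a rise of 0.20 (SE 0.05, adjusted p = 0.028). The carriers that exchange ADP and ATP across the inner membrane differed, as Slc25a5 rose by 0.80 (SE 0.04) in ADM and fell by 0.73 (SE 0.04) with DHT there, while Slc25a4 was at −0.06 (SE 0.04, adjusted p = 0.18) in ADM and fell by 0.24 (SE 0.04) with DHT.

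Among genes that build the chain, changes went in both directions. The counts of these lists are to be read against all genes tested, of which 28.3% rose and 33.3% fell in ADM against control and 17.2% rose and 16.3% fell in ADM+DHT against ADM. Of the complex I assembly factors 9 of 17 (52.9%) rose and 3 fell in ADM, and 10 (58.8%) fell in ADM+DHT against ADM. Of those of complex IV, 16 of 23 (69.6%) rose and 1 fell in ADM, and 11 (47.8%) fell in ADM+DHT against ADM. Of those of complexes II and III, 4 of 9 (44.4%) rose and 2 (22.2%) fell in ADM. In ADM+DHT against ADM 2 of these 9 (22.2%) fell and 1 (11.1%) rose. Of those of complex V, 1 of 5 (20%) rose and 0 fell in ADM, and 2 (40%) fell in ADM+DHT against ADM. Surf1, a complex IV assembly factor whose human gene is mutated in Leigh syndrome, rose by 1.02 (SE 0.05) and fell by 0.20 (SE 0.04) with DHT in adipogenic medium. Uqcc2, a complex III assembly factor, fell by 0.79 (SE 0.05) in ADM, with 284, 263 and 279 FPKM in control and 158, 153 and 165 in ADM. With DHT in adipogenic medium Uqcc2 rose by 0.15 (SE 0.04, adjusted p = 0.039). In coenzyme Q synthesis 7 of 13 (53.8%) rose and 1 fell in ADM, and 8 of 13 (61.5%) fell in ADM+DHT against ADM. The largest change on that list was in Coq8a, a kinase-like regulator of the pathway, which rose by 2.19 (SE 0.11) and fell by 1.09 (SE 0.11). Of 78 mitochondrial ribosomal protein genes, 36 (46.2%) rose and 7 fell in ADM (median log2 difference 0.16), and 47 (60.3%) fell and 0 rose in ADM+DHT against ADM (median −0.26; 0 were higher at an unadjusted p below 0.05).

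Genes that copy, transcribe and process the mitochondrial genome were mixed. Of 25 tested, 9 rose and 3 fell in ADM (36% and 12%, against 28.3% and 33.3% of all genes), and 9 fell and 0 rose in ADM+DHT against ADM (36%, against 16.3% of all genes that fell; 0 higher at an unadjusted p below 0.05). Tfam, which packs the mitochondrial DNA and starts its transcription, had 12.7, 10.5 and 10.6 FPKM in control, 9.28, 11.4 and 8.39 in ADM, and 11.5, 10.6 and 7.72 in ADM+DHT, and was not called (adjusted p = 0.17 in ADM). The mitochondrial RNA polymerase Polrmt was not called either, with a log2 difference of −0.02 (SE 0.09, adjusted p = 0.89) in ADM. The transcription factor Tfb2m, which opens the mitochondrial promoters, rose by 0.62 (SE 0.05) and fell by 0.30 (SE 0.05), and Lrpprc, which stabilises mitochondrial messenger RNA, fell by 0.56 (SE 0.06) in ADM+DHT against ADM.

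Among 8 tested nuclear regulators of the family, 2 rose (25%, near the 28.3% of all genes) and 4 fell (50%, against 33.3%) in ADM. Ppargc1b, the coactivator PGC-1β, had 1.97, 1.99 and 1.44 FPKM in control, 1.12, 0.919 and 1.07 in DHT, 4.72, 5.23 and 5.48 in ADM, and 1.17, 1.15 and 1.05 in ADM+DHT. Only the ADM libraries were high, and every library with DHT was below every control library. It rose by 1.14 (SE 0.10, adjusted p = 5.0e-05) in ADM, fell by 1.53 (SE 0.08, adjusted p = 1.1e-05) in ADM+DHT against ADM and fell by 0.45 (SE 0.10, adjusted p = 0.017) in DHT against control. Esrra, the estrogen-related receptor it coactivates, rose by 0.86 (SE 0.13) and fell by 0.54 (SE 0.08). Nrf1 and Gabpa, also known activators of these promoters, fell in ADM by 0.54 (SE 0.07) and 0.34 (SE 0.04). In ADM+DHT against ADM, Gabpa fell by 0.15 (SE 0.05, adjusted p = 0.046). In that comparison 3 of the 8 regulators fell (37.5%, against 16.3% of all genes) and 0 rose by limma (1 was higher at an unadjusted p below 0.05). Ppargc1a was not analysed here.

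The pathways that supply the chain with electrons rose in ADM and fell with DHT there in most genes. Of all genes tested, 28.3% rose and 33.3% fell in ADM against control, and 17.2% rose and 16.3% fell in ADM+DHT against ADM. Of 19 genes of the citric acid cycle and pyruvate dehydrogenase, 18 rose in ADM (median log2 difference 0.99) and 18 fell in ADM+DHT against ADM (median −0.86). Citrate synthase, Cs, had 42.4, 42.4 and 43.5 FPKM in control, 39.6, 39.1 and 39.7 in DHT, 95.0, 100 and 108 in ADM, and 41.6, 41.7 and 41.7 in ADM+DHT. The ADM libraries were far above all others, and the DHT libraries were slightly below the other groups. Of 19 genes of mitochondrial fatty acid oxidation, 17 rose and 2 fell in ADM (median 1.47), and 15 fell and 2 rose in ADM+DHT against ADM (median −0.75). Acadm, which oxidises medium-chain fatty acids, had 24.2, 26.5 and 25.9 FPKM in control, 221, 227 and 227 in ADM, and 126, 129 and 128 in ADM+DHT, with the ADM+DHT libraries well above control.

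**Figure D5:**
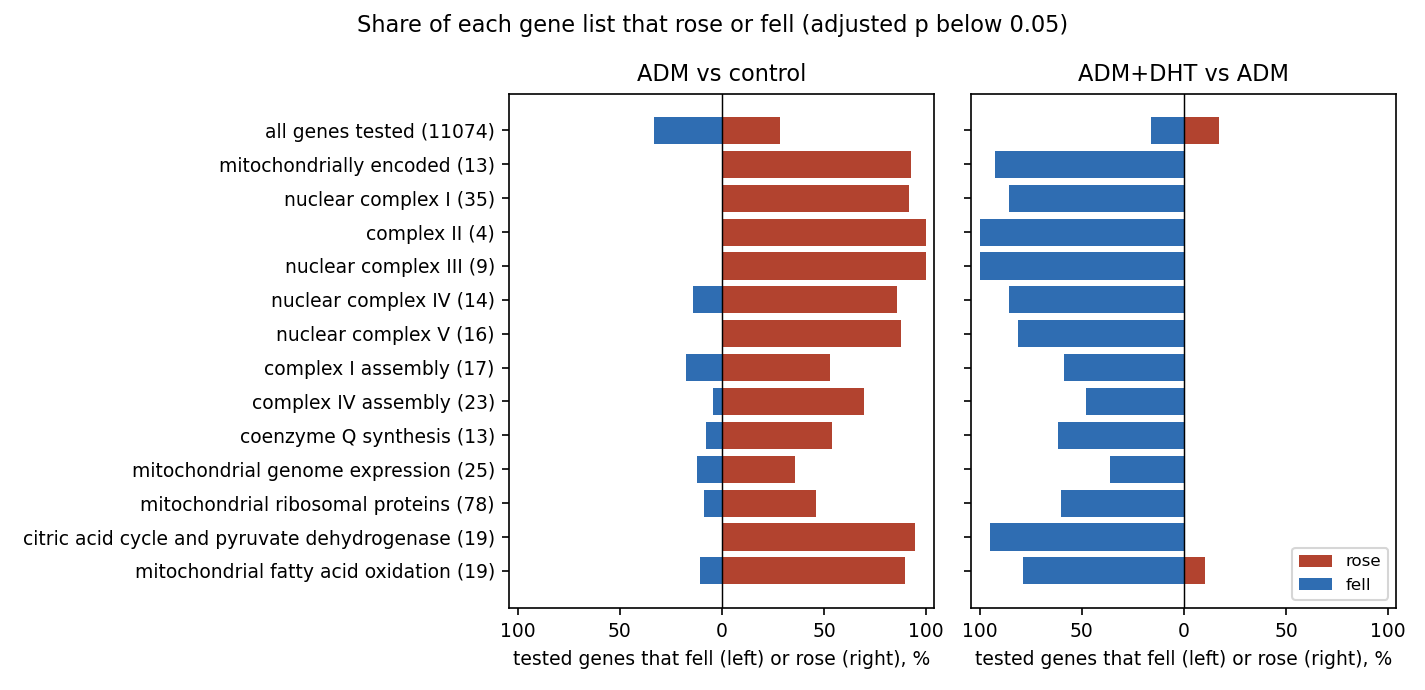
Share of tested genes on each list that rose (red, right) or fell (blue, left) in ADM against control and in ADM+DHT against ADM, with the number tested in ADM against control in brackets. Subunits of the complexes, the citric acid cycle and fatty acid oxidation reach far to the right and then to the left, whereas all genes tested are near 28.3% and 33.3% on the left panel and 17.2% and 16.3% on the right.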

How the data were processed

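RNA of 12 cultures was measured, 3 in each of 4 groups taken from the treatment labels and titles; a title spelled differently from the others was read as ADM+DHT replicate 2. Libraries were poly(A)-selected, strand-specific and sequenced as read pairs, per the labels' protocols. FastQC, cutadapt, HISAT2, StringTie and the build GRCm38 are named, without versions, per the submitters' processing notes. The authors deposited 4 tables of FPKM per library, per the file headers, each for a pair of groups. The deposited group columns hold mean log2(FPKM + 1). Fold ratios, log2 fold changes, p-values and q-values from the authors were not used. A library's values did not differ between tables (largest difference 0), which allowed a join on the gene identifier. Each table had 1 empty line as received.

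The files hold no counts. At most 27.3% of 150 low genes per library lay within 0.05 of whole multiples of a smallest value, too few to recover reads, so depth is unknown and precision rests on the 3 libraries per group.

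Values were tested as log2(FPKM + 1) with limma 3.58.1 in R 4.3.3, with moderated variances that follow a trend, for genes that averaged 1 FPKM or more in either group, two-sided, with Benjamini-Hochberg adjustment over all genes tested. Pairs were fitted on 6 libraries (4 residual degrees of freedom) and the interaction on 12 (8 residual degrees of freedom). The 4 deposited pairs share their groups, so their results are not independent. The test was checked on simulated data. Named genes are all mitochondrial members, the 3 largest rises and 3 largest falls per comparison among called nuclear members without overlap, the isoform pairs, core subunits and regulators, and up to 3 genes per list with the smallest adjusted p; exceptions are marked, and 1 gene that the rule names is not reported here. The members and lists were chosen with earlier results of these data known. Alternatives were other pseudocounts, filters, scalings, fits and each library left out. Gene starts and windows are RefSeq's on GRCm38.p6 and overlaps GENCODE's M21. Joins and figures used Python 3.11.15, pandas 2.3.3, numpy 2.4.6, matplotlib 3.10.9 and R's data.table, version 1.17.8.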

Additional observations from a re-analysis of the deposited data

Results flagged for a closer look

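In each of the genes below, named in the report by rule, the effect of DHT differed between adipogenic and regular medium by limma's interaction test over 12 libraries (adjusted p below 0.05). Values are the log2 difference of ADM+DHT and ADM minus that of DHT and control. For the nuclear complex I genes it was Ndufs1 −0.73, Ndufv3 −0.57, Ndufb3 −0.55, Ndufs3 −0.43, Ndufv1 −0.40, Ndufa3 −0.36 and Ndufs8 −0.31. For complex III and cytochrome c it was Uqcrfs1 −1.27, Cycs −0.99, Uqcrc2 −0.87, Cyc1 −0.72 and Uqcrc1 −0.57. For complex V it was Atp5a1 −0.53, Atp5b −0.50 and Atp5g3 −0.28. For complex IV it was Cox8b −2.30, Cox6b1 −0.63, Cox4i1 −0.58, Cox6a1 −0.52, Ndufa4 −0.40 and Cox8a −0.39. Cox6a2 was the only one of them with a positive value, 0.98. For the mitochondrial genes it was mt-Nd3 −0.54, mt-Nd2 −0.51, mt-Atp8 −0.51, mt-Co1 −0.49, mt-Nd1 −0.47, mt-Atp6 −0.40, mt-Nd4l −0.40, mt-Cytb −0.37, mt-Nd5 −0.37, mt-Nd4 −0.37, mt-Co2 −0.35 and mt-Co3 −0.33. The calls of Ndufa3 and Cox6a2 were each lost without some single library (for Ndufa3 without control replicate 3), and that of Cox8b with a smaller pseudocount. Adipocyte markers were lower with DHT in the same libraries, 693 to 768 FPKM in sum against 2039 to 2142, and their part in these differences was not tested.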

How the results depend on the processing

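Every called change of a member named by rule, or singled out after its values were seen, kept its direction under all settings tried. Other members named above, among them Ndufa10, Uqcrb, Atp5g1, Atp5d, Atp5f1 and Ndufs6, were not followed singly through these settings. The values that changed sign were not called. For Atp5g2 in ADM against control they were 0.0029 with mitochondrial genes left out of the scaling and 0.011 by median of ratios. For Atp5g2 in ADM+DHT against ADM the value was 0.0089 scaled to an equal sum. For mt-Nd6 in ADM+DHT against ADM they were 0.012 and 0.066 when scaled without mitochondrial genes and to an equal sum. Counts of members moved in small numbers: those that fell in ADM against control were 1 by median of ratios and without a variance trend (the lost gene is Cox7a2l); those that rose in DHT against control were 3 with mitochondrial genes left out of the scaling, 4 scaled to an equal sum and 2 fitted on all 12 libraries; and 1 rose in ADM+DHT against ADM scaled to an equal sum or fitted on all 12. Scaling to an equal sum per library, which moved the median of all genes in ADM against control to −0.10, gave log2 ratios of summed FPKM of 0.81 (mitochondrial) and 0.58 (nuclear) for ADM against control, −0.30 and −0.52 for ADM+DHT against ADM, and 0.18 for the nuclear sum of ADM+DHT against DHT, which was 0.25 by median of ratios. Cox8b's interaction was −0.88 with a pseudocount of 0.1.

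With each library left out in turn, 79 to 82 members rose and 1 to 2 fell in ADM against control, 0 to 3 rose and 8 to 25 fell in DHT against control, 75 to 78 fell and 0 rose in ADM+DHT against ADM, 53 to 58 rose in ADM+DHT against DHT, 34 to 41 rose and 7 to 13 fell in ADM+DHT against control, and 62 to 68 were negative and 0 to 1 positive in the interaction. Values that were not called changed sign without a library in Atp5g2 (−0.069 to 0.037 in ADM against control), Ndufa12 (−0.31 to 0.080 in ADM+DHT against DHT), Ndufb10 (−0.065 to 0.20 in ADM+DHT against DHT and −0.28 to 0.049 in ADM+DHT against control) and mt-Nd6 (−0.053 to 0.065 in ADM+DHT against ADM). Deviations of libraries with the same replicate number had correlations from −0.13 to 0.14. No pairing by number was seen, but with 3 libraries a group these correlations cannot exclude one. With a replicate block 82 members rose in ADM against control, 17 fell in DHT against control, 76 fell in ADM+DHT against ADM and 65 were negative in the interaction. The causes of these shifts were not tested. Depth is unknown, so no limit of detection can be given for low members such as Cox8b in DHT.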
